A study of Mus musculus with 12 samples.

Results

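The genes described here are 10 rows of a hippocampal RNA-seq count table: Amd1, Amd2, Odc1, Srm, Sms, Sat1, Oaz1, Azin1, Smox and Paox, the core genes of polyamine metabolism in the mouse. They were found by matching each Ensembl identifier of the table to these symbols, and all 10 of the 10 were present, out of 56980 rows in all, and passed the filter on low counts, which kept 19152 rows. Amd2 was chosen by its measured counts, which had been seen to be lower without Trem2 at both ages, so the genotype differences of Amd2 are given below as values with no test, and the other 9 genes were added for their place in the pathway. Each of 12 male mice gave 1 library of bulk hippocampal RNA, and the mice formed 4 groups of 3. Every mouse carried the AppNL-G-F allele, a knock-in of mutations of familial Alzheimer's disease into the App gene, after which amyloid-β is deposited in the brain. The groups were AppNL-G-F at 3 months, AppNL-G-F at 9 months, AppNL-G-F with Trem2 KO at 3 months and AppNL-G-F with Trem2 KO at 9 months. They are named App-KI and Trem2-KO below. Trem2 is a lipid-sensing receptor of microglia. No group without the App knock-in was analysed here, so the effects of age and of amyloid cannot be told apart, and the labels do not say whether App-KI and Trem2-KO mice were littermates or give a batch.

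Polyamines (putrescine, spermidine and spermine) are small positively charged molecules that bind nucleic acids and modulate ion channels and glutamate receptors in neurons. Ornithine decarboxylase, made from Odc1, produces putrescine, and S-adenosylmethionine decarboxylase, made from Amd1, produces the aminopropyl donor that the synthases Srm and Sms attach to putrescine and spermidine. Antizyme (Oaz1) sends ornithine decarboxylase to the proteasome, antizyme inhibitor (Azin1) blocks antizyme, and Sat1, Smox and Paox acetylate or oxidise spermine and spermidine back toward putrescine.

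Amd2 is a near-copy of Amd1 that lacks introns. In the reference gene models both genes lie on chromosome 10, the Amd1 transcript has 8 exons and 3204 bases, and the Amd2 transcript has 1 exon and 3218 bases. The aligned transcripts were 99.6% identical, with 14 substituted bases and 14 inserted or missing bases. Their coding sequences, 1005 bases each, differed at 1 base, G796C, where positions are counted from the first base of the start codon, the first letter is that of Amd1 and the last that of Amd2. The coding stretch from base 766 to 826 is shown for both because it holds the only coding base that tells their reads apart, which is in capitals.
Amd1: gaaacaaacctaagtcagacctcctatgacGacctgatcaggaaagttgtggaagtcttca
Amd2: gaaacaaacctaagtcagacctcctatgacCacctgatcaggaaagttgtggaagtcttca

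Most of an Amd2 transcript could therefore not be assigned to 1 gene by sequence. Of all windows of 50 bases along the Amd2 transcript, 85.7% were found letter for letter in the Amd1 transcript, and of windows of 150 bases 61.6% were. No source used here gives the read length or how reads that fit several genes were treated, so the counts of Amd1 and Amd2 are uncertain and are given both apart and added.

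**Figure D1:**
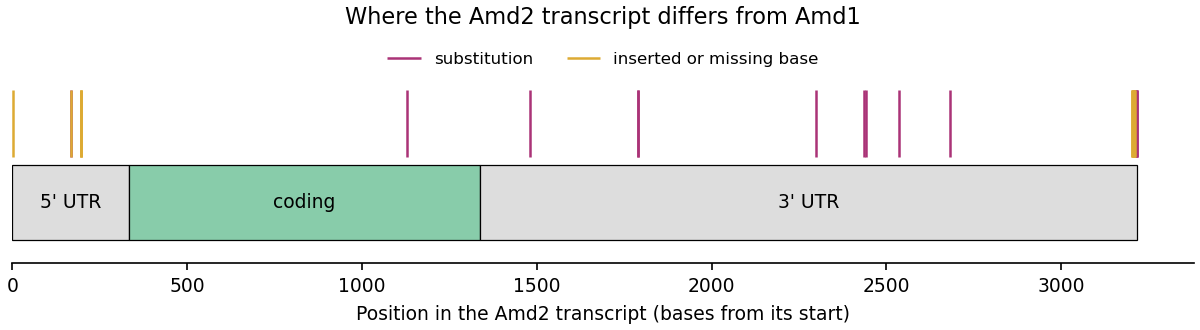
Map of the 14 substituted and 14 inserted or missing bases between the Amd1 and Amd2 transcripts, by position in the 3218-base Amd2 transcript (horizontal axis, bases from its start), over its untranslated and coding parts. The coding part carries 1 substitution, and the 3′ untranslated part holds 12 of the others.

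The stretches just before the start of each gene did not resemble each other. The 120 bases upstream of the start are shown because here the copies part. The longest run shared between their 250 upstream bases was 7 bases. After the start, a run of at least 48 bases was identical, from base 3 of Amd1 and base 1 of Amd2. The 48 bases are a lower bound, since the aligned transcripts of the reference gene models differed at bases 1 and 167 of Amd2 and nowhere between. Those models may place the starts at other bases than the source of the upstream sequences. The sequences are from RefSeq on GRCm38.p6, on the minus strand, at chr10:40302189-40302308 for Amd1 and chr10:35711892-35712011 for Amd2, while the counts were made on GRCm39. Capitals mark matches to TATATAA on either strand, which overlap in Amd1.
Amd1: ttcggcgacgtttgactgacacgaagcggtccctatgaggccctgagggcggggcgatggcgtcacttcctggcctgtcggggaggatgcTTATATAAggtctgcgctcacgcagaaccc
Amd2: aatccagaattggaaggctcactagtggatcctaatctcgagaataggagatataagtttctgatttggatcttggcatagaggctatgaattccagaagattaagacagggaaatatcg

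TATATAA occurred in the 250 upstream bases of Amd1 and not in those of Amd2, and in 3.04% of 32851 such windows. The Amd1 window held 19 CpG sites and 64.4% G and C, and the Amd2 window held 2 CpG sites and 37.6%, against a median of 6 sites and 52.4% over all windows.

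Total counts per library ran from 14627892 to 24594655, so that 3 counts, the most that a count of 0 leaves possible, equal 0.122 to 0.206 CPM (counts per 1000000 of the scaled library size), for counting error only. Trem2 itself ran from 8.05 to 10.35 CPM at 3 months and from 49.8 to 55.6 CPM at 9 months in App-KI mice. With Trem2 KO it ran from 1.85 to 2.17 CPM and from 3.62 to 3.83 CPM. Markers of hippocampal dentate granule cells (5 genes) and CA1 pyramidal cells (4 genes) were all detected, and summed to 406 to 477 and to 499 to 648 CPM over the 12 libraries. Markers of the choroid plexus, a neighbouring tissue, differed widely within groups, from 48.2 to 3106 CPM in sum. Replicates were not copies of each other: the 12 pairs within groups differed by a chi-square of 3.04 to 17 per gene, where counting alone gives about 1.

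Amd2 was low in all Trem2-KO libraries. At 3 months its counts were 285, 181 and 226 in App-KI and 31, 38 and 19 in Trem2-KO, which correspond to 11.6, 10.3 and 11.02 CPM against 2.12, 1.67 and 0.916 CPM. At 9 months the counts were 114, 120 and 111 in App-KI and 45, 35 and 26 in Trem2-KO, or 6.01, 6.43 and 7.28 CPM against 1.99, 1.68 and 1.38 CPM. The libraries of the 2 genotypes did not overlap at either age, and the lowest App-KI library stood above the highest of the 6 Trem2-KO libraries. The group means were 10.99 ± 0.643 CPM (SD, n = 3) with Trem2 and 1.57 ± 0.611 CPM without it at 3 months, and 6.58 ± 0.647 and 1.68 ± 0.303 CPM at 9 months. The log2 fold change was -2.84 ± 0.21 (standard error) at 3 months and -1.95 ± 0.21 at 9 months; these are the values for which Amd2 was chosen, and they support no further statement. All 6 Trem2-KO libraries held between 19 and 45 Amd2 counts, above the limit of 3. That limit covers counting error only, and whether these counts include reads of Amd1 was not tested.

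Amd1, the copy with introns, showed no called difference between genotypes. The 3-month App-KI libraries held 119, 118 and 118 CPM, and the 3-month Trem2-KO libraries 111, 115 and 113 CPM. The 9-month App-KI libraries held 122, 118 and 130 CPM, and the 9-month Trem2-KO libraries 117, 126 and 127 CPM. The groups did not overlap at 3 months and did at 9 months. The log2 fold change between genotypes was -0.07 ± 0.05 at 3 months (95% interval -0.173 to 0.0359, adjusted p = 0.675, from the quasi-likelihood test of edgeR after Benjamini-Hochberg adjustment over all genes). At 9 months the interval was -0.107 to 0.112 (edgeR adjusted p = 0.992).

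**Figure D2:**
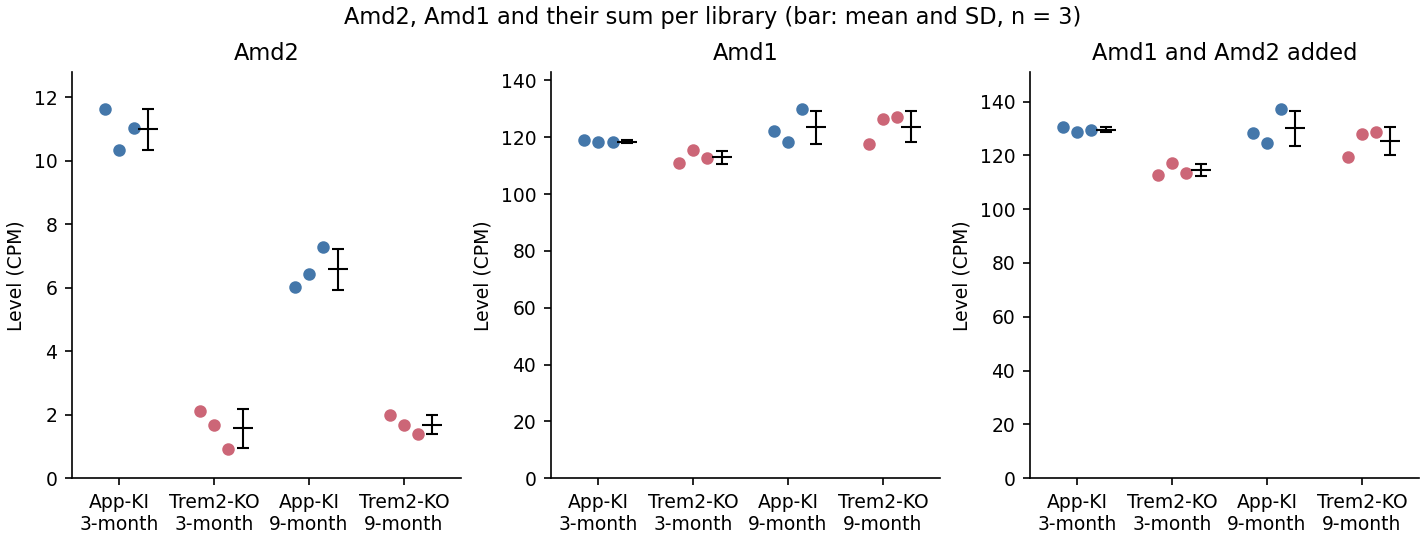
Levels of Amd2, Amd1 and both added in CPM (vertical axes, starting at 0) for each of the 12 libraries by group, with the mean and SD of 3 libraries as black bars. Amd2 is below 2.2 CPM in all Trem2-KO libraries and at 6.01 CPM or above in all App-KI libraries, while Amd1 stays between 111 and 130 CPM throughout.

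Set against Amd1 in the same library, Amd2 was a small part of the pair in every group. Its share of the counts of both genes was 8.9%, 8.04% and 8.52% in App-KI at 3 months and 4.69%, 5.15% and 5.31% in App-KI at 9 months. It was 1.88%, 1.43% and 0.806% in Trem2-KO at 3 months and 1.66%, 1.31% and 1.07% at 9 months. The exact Clopper-Pearson 95% intervals, which cover counting error only, reached down to 6.95% in App-KI at 3 months and to 3.88% at 9 months, and up to 2.66% in Trem2-KO. The mean share with Trem2 was 8.48 ± 0.430% (SD, n = 3) at 3 months and 5.05 ± 0.323% at 9 months. Without Trem2 it was 1.37 ± 0.540% and 1.35 ± 0.297%.

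**Figure D3:**
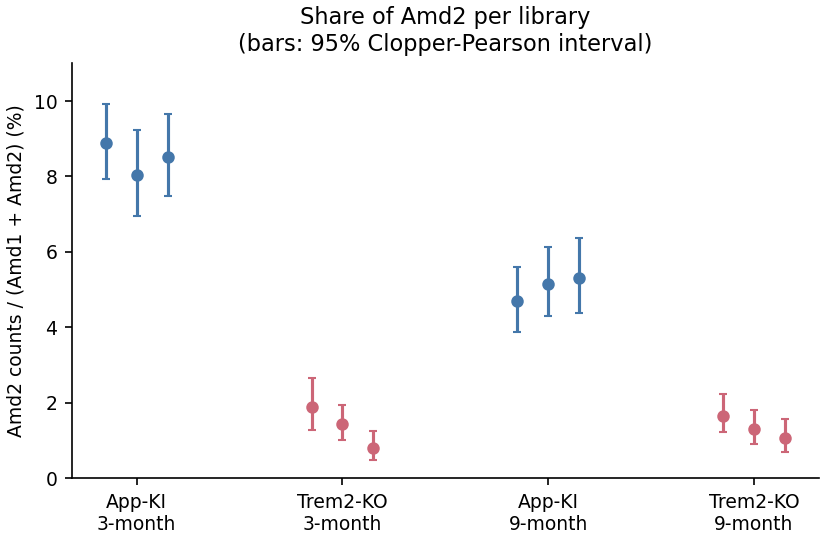
Share of Amd2 in the counts of Amd1 and Amd2 (vertical axis, percent, starting at 0) for each library by group, with Clopper-Pearson 95% intervals. The 3-month App-KI libraries lie at 8.04% to 8.9%, the 9-month App-KI libraries at 4.69% to 5.31%, and all Trem2-KO libraries at 1.88% or below.

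Added together, the copies reached 129.5 ± 1.04 CPM (SD, n = 3) with Trem2 and 114.5 ± 2.21 CPM without it at 3 months. At 9 months the sums were 130.1 ± 6.36 and 125 ± 5.13 CPM. The log2 fold change of the sum between genotypes was -0.18 ± 0.05 at 3 months and -0.05 ± 0.05 at 9 months, given without a test because the sum contains Amd2. Rows of 5 further Amd pseudogenes were in the table with at most 16 counts in a library, and 1 of them passed the filter.

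Amd2 fell with age in App-KI mice: its log2 fold change from 3 to 9 months was -0.75 ± 0.17 (95% interval -1.11 to -0.384, edgeR adjusted p = 0.00962), with all 3 libraries at 9 months below all 3 at 3 months. This test shares its App-KI libraries with the genotype comparisons for which Amd2 was chosen and is not independent of them. The call held in 15 of 16 alternatives, with an adjusted p of 0.000164 to 0.0656 over them. It was lost without App-KI 9-month replicate 1 (-0.69, edgeR adjusted p = 0.0656). The alternatives use the same mice, so they do not remove the dependence on how Amd2 was chosen. In Trem2-KO mice the change was 0.14 ± 0.25 (95% interval -0.373 to 0.658, edgeR adjusted p = 0.786) at counts of 19 to 45, and its sign turned, to -0.14, when Trem2-KO 3-month replicate 3 was left out (edgeR adjusted p of 0.438 to 0.998 over the alternatives). The value was 0.37 with replicate 1 of that group left out and 0.00 with Trem2-KO 9-month replicate 1 left out. The difference between these age effects was 0.89 ± 0.30, given without a test because it is also the difference between the genotype effects. The sum of both copies changed by 0.01 ± 0.05 with age in App-KI (edgeR adjusted p = 0.976) and by 0.13 ± 0.05 in Trem2-KO (edgeR adjusted p = 0.115).

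The 12 microglial markers summed to 580 to 607 CPM with Trem2 and to 550.0 to 575 CPM without it at 3 months. None was at 0 in all libraries, and edgeR called 0 of 12, against 0.590% of all genes. At 9 months they summed to 1529 to 1642 CPM in App-KI and 890 to 955 CPM in Trem2-KO, with 10 of 12 lower, against 1.39% of all genes lower and 0.684% higher. In App-KI they rose with age in 12 of 12 genes, against 3.95% of all genes higher and 2.71% lower. Markers of plaque-associated microglia were lower in Trem2-KO at 9 months in 6 of 8 genes, and rose with age in App-KI in 8 of 8. Of other lists at 9 months, 2 of 7 astrocyte and 1 of 4 CA1 markers were lower. Higher at 9 months were 2 of 8 fibroblast and 1 of 6 endothelial markers. At 3 months 1 of 6 endothelial markers was lower, against 0.423% of all genes, and no marker of another list was called. The part of these markers in the Amd2 values was not tested. In bulk tissue, fewer cells of a type and less RNA per cell cannot be told apart.

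The 5 genes whose pattern over the 12 libraries was most like that of Amd2 were Derl3, Dna2, Sdf2l1, Hspb1 and Hspa1b. Likeness was the root mean square difference of log2 CPM, each gene centred on its own mean, over genes whose mean log2 CPM was 1 or more. It was 0.658 for Derl3, a factor that exports misfolded proteins from the endoplasmic reticulum, 0.781 for Dna2, a DNA repair nuclease, 0.786 for Sdf2l1, an endoplasmic reticulum chaperone component, 0.815 for the small heat shock protein gene Hspb1 and 0.86 for Hspa1b, an inducible HSP70. A gene flat over all libraries would have scored 1.24. The genotype log2 fold changes of the 5 were smaller than those of Amd2, from -1.6 to -0.964 at 3 months and from -1.25 to -0.569 at 9 months. With age in App-KI, Derl3, Dna2 and Hspb1 had -0.55, -0.523 and -0.483, Sdf2l1 had -0.152 and Hspa1b had 0.133. The 5 genes were picked by these libraries, so the values are given without a test. Derl3 stood at 4.25 ± 1.24 CPM (SD, n = 3) with Trem2 and 1.38 ± 0.137 CPM without it at 3 months, and at 2.91 ± 0.981 and 1.21 ± 0.373 CPM at 9 months. Of 12 annotated genes within 1 Mb of Amd2 in the reference gene models, 1 had enough counts to test, and edgeR called it at neither age (Hs3st5, named after its values were seen).

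The 9 other genes of the pathway showed no called genotype difference. edgeR called 0 of 9 at 3 months, against 0.590% of all 19152 genes tested (0.423% lower and 0.167% higher), and 0 of 9 at 9 months, against 2.08%. At an unadjusted p under 0.05 the numbers were 1 of 9 (Sat1) and 1 of 9 (Smox). The share of all genes at that threshold was not taken, so nothing is read from these numbers. DESeq2 called 0 of 9 at each age, and 259 genes in all at 3 months and 535 at 9 months. The median log2 fold change of the 9 was 0.05 at 3 months and 0.00 at 9 months, and that of all genes was 0.00 and 0.01. The libraries of the genotypes did not overlap for 3 of 9 genes at 3 months (Amd1, Sms and Sat1), against 17.6% of all genes, and for 1 of 9 (Smox) at 9 months, against 17.3%.

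**Figure D4:**
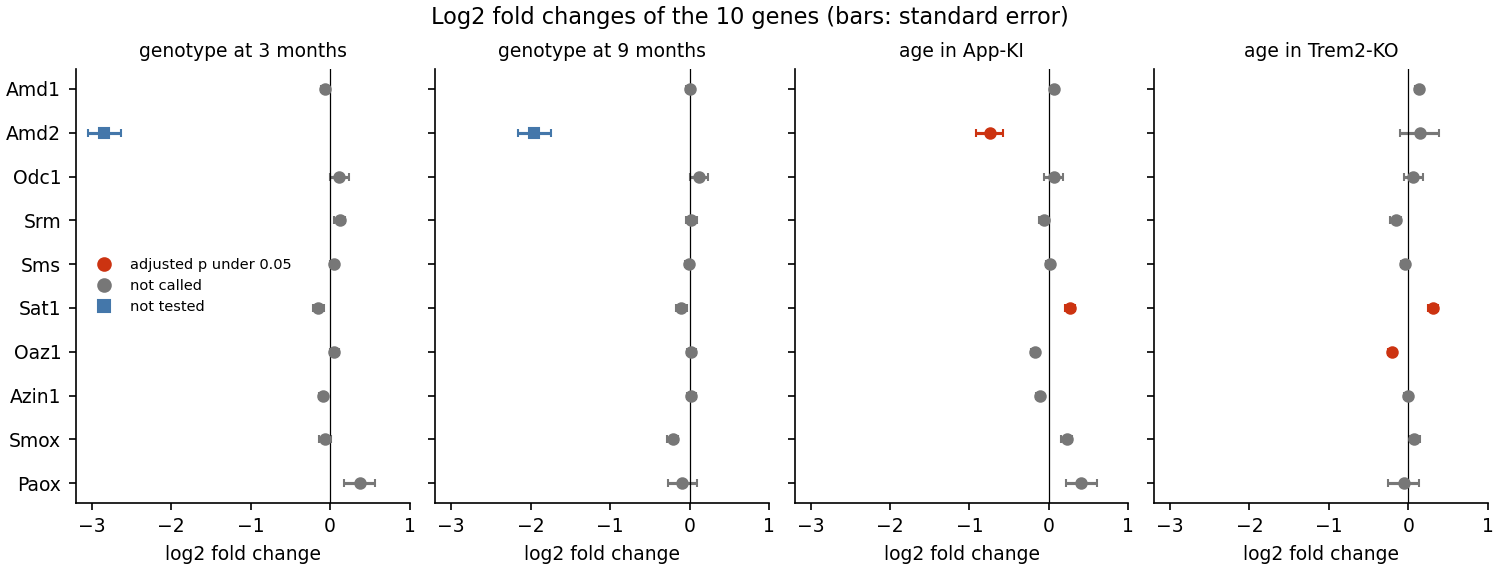
Log2 fold changes (horizontal axes) with standard errors for the 10 genes in the comparisons of genotype (Trem2-KO against App-KI) at each age and of age (9 against 3 months) in each genotype. Amd2 is at -2.84 and -1.95 in the genotype panels, where it was not tested, while the other 9 genes lie between -0.21 and 0.37 there.

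Among the biosynthetic enzymes, Odc1 was at 75.7, 74.0 and 69.8 CPM in the 3-month App-KI libraries and at 75.4, 77.0 and 85.3 CPM in the 3-month Trem2-KO libraries. In the 9-month libraries it was at 83.6, 72.5 and 72.5 CPM with Trem2 and at 84.9, 97.5 and 65.8 CPM without it. The 9-month Trem2-KO libraries held both the highest and the lowest value of the 12, and the groups overlapped at both ages. Its genotype log2 fold change was 0.12 ± 0.12 at each age (edgeR adjusted p = 0.801 and 0.731). At 9 months that value was -0.02 without Trem2-KO replicate 2 and 0.26 without Trem2-KO replicate 3 (edgeR adjusted p = 0.97 and 0.0787, in a range of 0.0787 to 0.97 over the alternatives).

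Srm, the spermidine synthase gene, was at 53.7, 52.3 and 57.2 CPM with Trem2 and at 53.7, 59.96 and 63.3 CPM without it at 3 months. At 9 months the 6 libraries lay between 51.2 and 54.2 CPM. Its change with age in Trem2-KO was -0.16 ± 0.06 (edgeR adjusted p = 0.127), and it was called without Trem2-KO 3-month replicate 1 (-0.22, edgeR adjusted p = 0.0398, in a range of 0.0398 to 0.461 over the alternatives). Sms, the spermine synthase gene, stood at 151 to 167 CPM over all 12 libraries. Its group means with and without Trem2 were 158 ± 4.29 and 164 ± 3.02 CPM (SD, n = 3) at 3 months and 159.5 ± 1.92 and 159 ± 7.77 CPM at 9 months. edgeR called it in none of the 5 comparisons.

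Oaz1, the antizyme gene, was the most abundant of the 10 per length: divided by exon length, its level was 109 ± 6.40 CPM per kb (SD, n = 3) in App-KI at 3 months. Srm (34.0 ± 1.58), Azin1 (34.0 ± 1.28) and Amd1 (33.5 ± 0.118) followed, with means closer together than the SD of Srm or of Azin1. Sms came next at 26.4 ± 0.714. Sat1 at 21.6 ± 0.539 and Odc1 at 21.5 ± 0.894 did not differ beyond their spread, and Smox stood at 12.9 ± 0.181 CPM per kb. Amd2 stood at 3.42 ± 0.200 and Paox at 1.26 ± 0.320 CPM per kb. The place of Amd2 in this order is uncertain, because its level was divided by the whole transcript although most of its windows also occur in Amd1.

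From 3 to 9 months edgeR called 2 of 10 genes in App-KI, against 6.66% of all genes, 3.95% higher and 2.71% lower (Amd2 lower and Sat1 higher), and 2 of 10 in Trem2-KO, against 8.70%, 5.68% higher and 3.02% lower (Sat1 higher and Oaz1 lower). DESeq2 called the same genes, 2 of 10 in each, and 1355 genes in all in App-KI and 1893 in Trem2-KO. Amd2 was chosen on counts that include these App-KI libraries, so nothing is read from the App-KI count, in which Sat1 is the other gene. The libraries of the 2 ages did not overlap for 5 of 10 genes in App-KI, against 22.7% of all genes. These were Amd2, Sat1, Oaz1, Azin1 and Smox, and nothing is read from this count either, since it includes Amd2. In Trem2-KO the libraries of the ages did not overlap for 3 of 10 (Amd1, Sat1 and Oaz1), against 25.4%.

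Sat1, whose product acetylates spermidine and spermine as the first step of their breakdown, rose with age in both genotypes. In App-KI it lay at 59.5, 61.5 and 58.6 CPM at 3 months and 69.3, 72.7 and 73.7 CPM at 9 months. In Trem2-KO it lay at 58.2, 54.6 and 49.5 CPM at 3 months and 60.9, 69.0 and 71.1 CPM at 9 months. The ages did not overlap in either genotype. The log2 fold change was 0.26 ± 0.07 in App-KI (edgeR adjusted p = 0.0196) and 0.31 ± 0.07 in Trem2-KO (edgeR adjusted p = 0.00664), and the difference between them was 0.05 ± 0.10 (95% interval -0.154 to 0.247, edgeR adjusted p = 0.994), or -0.01 without Trem2-KO 3-month replicate 3. In App-KI the call did not hold without App-KI 3-month replicate 1 or 3 or App-KI 9-month replicate 2 or 3 (edgeR adjusted p = 0.057, 0.0982, 0.0801 and 0.084, in a range of 0.00368 to 0.0982 over the alternatives). In Trem2-KO it was lost without 3-month replicate 3 (edgeR adjusted p = 0.0633, in a range of 0.000128 to 0.0633).

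Oaz1 fell with age in Trem2-KO. It was at 260.0, 288 and 288 CPM in App-KI at 3 months and 256, 232 and 253 CPM at 9 months, and in Trem2-KO at 273, 295 and 301 CPM at 3 months and 260.1, 244 and 248 CPM at 9 months, with no overlap between ages in either genotype. The log2 fold change was -0.21 ± 0.05 in Trem2-KO (edgeR adjusted p = 0.0222), and in App-KI, where it was not called, -0.18 ± 0.05 (edgeR adjusted p = 0.062). The difference between the age effects was -0.03 ± 0.08 (edgeR adjusted p = 0.994), or 0.02 without App-KI 3-month replicate 1. The call in Trem2-KO was lost without 3-month replicate 2 or 3 or 9-month replicate 2 (edgeR adjusted p = 0.0836, 0.122 and 0.0967, in a range of 0.0054 to 0.122 over the alternatives). In App-KI Oaz1 was called with no filter on low counts (edgeR adjusted p = 0.0221) and without App-KI 3-month replicate 1, Trem2-KO 3-month replicate 1 or Trem2-KO 9-month replicate 1 (edgeR adjusted p = 0.0205, 0.0438 and 0.0432, in a range of 0.0205 to 0.282).

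**Figure D5:**
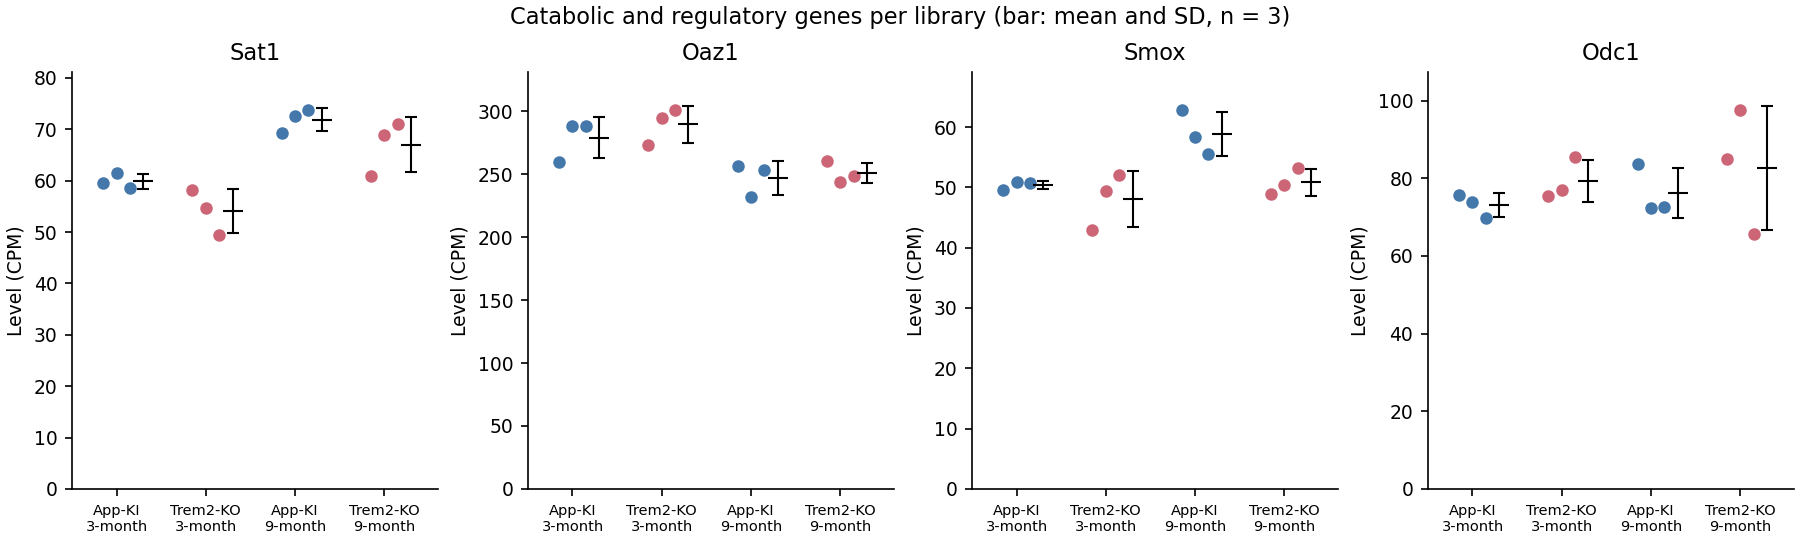
Levels of Sat1, Oaz1, Smox and Odc1 in CPM (vertical axes, starting at 0) per library by group, with the mean and SD of 3 libraries as black bars. Sat1 is higher and Oaz1 lower in all 9-month libraries than in the 3-month libraries of the same genotype, and Odc1 spreads from 65.8 to 97.5 CPM in Trem2-KO at 9 months.

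Smox, the spermine oxidase gene, lay at 49.6, 50.8 and 50.8 CPM in App-KI at 3 months and 62.8, 58.3 and 55.5 CPM at 9 months, without overlap. In Trem2-KO it lay at 42.9, 49.3 and 52.0 CPM and at 48.9, 50.4 and 53.2 CPM. At 9 months every Trem2-KO library was below every App-KI library. The age change in App-KI was 0.23 ± 0.07 (edgeR adjusted p = 0.0611) and the genotype difference at 9 months -0.21 ± 0.07 (95% interval -0.361 to -0.0666, edgeR adjusted p = 0.143), neither called. The age change was called with no filter on low counts, with only the groups compared in the fit and without Trem2-KO 3-month replicate 1 (edgeR adjusted p = 0.0403, 0.0311 and 0.0347, in a range of 0.0311 to 0.3 over the alternatives).

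Azin1, the antizyme inhibitor gene, stood at 212 ± 7.98 CPM (SD, n = 3) at 3 months and 196 ± 11.2 CPM at 9 months with Trem2, and at 199.7 ± 9.60 and 199 ± 4.85 CPM without it, and was not called in any comparison by edgeR. Paox, the gene of the peroxisomal polyamine oxidase, stood between 4.91 and 9.52 CPM in all libraries, on 86 to 193 counts, and was not called either. Its widest 95% interval between genotypes was -0.0381 to 0.787 on the log2 scale at 3 months.

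Markers of several cell types changed with age in the same libraries as Sat1 and Oaz1. Of all genes 3.95% were called higher and 2.71% lower with age in App-KI, and 5.68% and 3.02% in Trem2-KO. The 12 microglial markers rose in 12 of 12 genes in App-KI, to the sums given above, and in 10 of 12 in Trem2-KO. Of 7 astrocyte markers 3 rose in App-KI and 4 in Trem2-KO, with sums of 2998 to 3221 CPM at 3 months and 4717 to 4951 CPM at 9 months in App-KI, and of 2869 to 3072 and 4030 to 4357 CPM in Trem2-KO. Of 6 excitatory neuron markers 2 fell in App-KI and 3 in Trem2-KO, with sums of 3922 to 4387 and 3717 to 4004 CPM in App-KI and of 4150 to 4402 and 3605 to 4004 CPM in Trem2-KO. Of 8 meningeal and perivascular fibroblast markers 0 were called in App-KI and 4 rose in Trem2-KO, from sums of 166 to 235 CPM at 3 months to 267 to 373 CPM at 9 months. Of 6 endothelial markers 0 were called in App-KI and 2 rose in Trem2-KO, and of 4 CA1 markers 1 fell in App-KI and 3 in Trem2-KO. Of 6 oligodendrocyte markers 0 were called in App-KI and 1 fell in Trem2-KO, with sums of 6065 to 9824 CPM over all libraries, and of 6 inhibitory neuron markers 2 fell in App-KI and 1 in Trem2-KO. No marker of these lists was at 0 in all libraries, and their part in the age changes of Sat1 and Oaz1 was not tested.

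A wider list of 32 genes around the pathway covered ornithine and S-adenosylmethionine supply, methionine salvage, further antizymes, polyamine transport and hypusine formation, and 28 of them were tested. For genotype edgeR called 0 of 28 at each age, against 0.590% of all genes at 3 months and 2.08% at 9 months. At an unadjusted p under 0.05 there were 3 and 5 of the list, and nothing is read from these numbers, since the share of all genes was not taken. DESeq2 called 1 of the list at 3 months (Mri1, of the methionine salvage pathway, named after its values were seen) and 0 at 9 months. Over all genes DESeq2 called 259 at 3 months and 535 at 9 months. The median log2 fold change of the list was 0.02 at 3 months and 0.08 at 9 months, against 0.00 and 0.01 over all genes. With age 3 of 28 rose and 0 fell in App-KI, against 3.95% and 2.71% of all genes, and 1 rose and 0 fell in Trem2-KO, against 5.68% and 3.02%. The list had medians of 0.01 and 0.04 against 0.00 and 0.00 over all genes.

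Oat, the ornithine aminotransferase gene of the ornithine pool, rose with age in both genotypes. It lay at 137, 132 and 131 CPM at 3 months and 163, 156 and 154 CPM at 9 months in App-KI, and at 132, 118 and 125 CPM and 140.2, 150.2 and 148 CPM in Trem2-KO, without overlap between ages. The log2 fold change was 0.24 ± 0.05 in App-KI (edgeR adjusted p = 0.00482) and 0.23 ± 0.05 in Trem2-KO (edgeR adjusted p = 0.00739). The second call was lost without Trem2-KO 3-month replicate 2 (edgeR adjusted p = 0.0562, in a range of 0.00173 to 0.0562 over the alternatives).

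Mat2a, whose product makes the S-adenosylmethionine that Amd1 uses, rose in App-KI from 400.7 ± 7.05 CPM (SD, n = 3) to 456 ± 24.0 CPM, by a log2 fold change of 0.18 ± 0.05 (edgeR adjusted p = 0.0187), and had 0.11 ± 0.05 in Trem2-KO (edgeR adjusted p = 0.173). Adi1, of the methionine salvage pathway, rose in App-KI by 0.27 ± 0.08 (edgeR adjusted p = 0.0378) and had 0.19 ± 0.08 in Trem2-KO (edgeR adjusted p = 0.149). The difference between genotypes in these age effects was -0.08 ± 0.07 for Mat2a and -0.09 ± 0.11 for Adi1 (edgeR adjusted p = 0.99 for both). Mat2a was no longer called without App-KI 3-month replicate 2 or 3 or 9-month replicate 2 or 3 (edgeR adjusted p = 0.0857, 0.0982, 0.0632 and 0.121, in a range of 0.00342 to 0.121). Adi1 was no longer called in App-KI without its 3-month replicate 1 or 3 or 9-month replicate 1 or 3 (edgeR adjusted p = 0.119, 0.163, 0.199 and 0.118, in a range of 0.00838 to 0.199). Adi1 was called in Trem2-KO without 9-month replicate 3 (edgeR adjusted p = 0.0342, in a range of 0.0342 to 0.429).

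The 2 most abundant genes of the list that were not called were Eif5a, which carries the spermidine-derived hypusine, and Oaz2, a further antizyme. Eif5a stood at 408 ± 8.37 CPM (SD, n = 3) with Trem2 and 442 ± 8.59 CPM without it at 3 months, and at 393 ± 9.70 and 427 ± 12.9 CPM at 9 months, with log2 fold changes of 0.11 ± 0.05 and 0.12 ± 0.05 (edgeR adjusted p = 0.318 and 0.227). Its Trem2-KO libraries were all above its App-KI libraries at each age. The genotypes did not overlap for 17.6% of all genes at 3 months and 17.3% at 9 months. Oaz2 stood between 224 and 254 CPM in all 12 libraries.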

How the data were processed

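The authors deposited 1 table of raw counts per gene, 1 column per mouse, as its whole-number values show. Of the authors' steps, the build GRCm39 and the tools featureCounts 2.0.3, STAR 2.7.10a, DESeq2 1.36.0 and R 4.2.0 are named per the submitters' processing notes, with strand setting and annotation release not given in the sources used here. A table of Ensembl identifiers and symbols named 52073 of 56980 rows. GENCODE M21 (GRCm38) gave transcripts, exon lengths and, by its own coordinates, the genes within 1 Mb of Amd2.

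The low-count filter was filterByExpr of edgeR (count 10, total 15 at least), libraries were scaled by TMM, and genes were tested with edgeR 4.0.16 (R 4.3.3; robust quasi-likelihood F-test, 1 term per group, 8 residual degrees of freedom, Benjamini-Hochberg adjustment over 19152 genes). Calls were made under an adjusted p of 0.05. Standard errors came from the F statistic. P-values set the difference between groups against a spread between mice, estimated over the 4 groups together and moderated across genes. Alternatives were RLE scaling, DESeq2 1.42.0, no filter, only the groups compared, Amd1 and Amd2 added, and each library left out. Transcripts were aligned with Biopython 1.88. The test was tried on simulated counts. The genes and lists were chosen with earlier results of these data known. Named genes were the 10 members, called genes of the wider list with its 2 most abundant uncalled ones, the 5 genes most like Amd2, and any called neighbour of Amd2, of which there was none.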

Additional observations from a re-analysis of the deposited data

How the results depend on the processing

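No paired analysis was possible because the labels give mouse identifiers that groups do not share. For genotype, 0 of the 9 members were called under any alternative. With Amd1 and Amd2 added, Amd1 was no longer a row and the sum was given no genotype test. With age in App-KI, where 2 members were called, no filter on low counts gave 4 and adding Amd1 and Amd2 gave 1, since Amd2 is then no longer a row, and leaving out single libraries gave 1 to 4. In Trem2-KO leaving out single libraries gave 0 to 3. Counts over all genes moved more. For genotype at 3 months 113 became 347 with no filter, 259 with DESeq2, 218 with only the groups compared and 26 to 154 without single libraries. At 9 months 398 (131 higher, 267 lower) became 831 with no filter (437 higher, 394 lower), so the balance of directions turned, and 175 to 556 without single libraries. For age, 1276 became 788 to 1523 in App-KI and 1667 became 769 to 1920 in Trem2-KO without single libraries. For the interaction of age and genotype, where 51 genes (11 higher, 40 lower) and none of the 9 members were called, the count was 187 with no filter (113 higher, 74 lower), 99 with DESeq2 (41 higher, 58 lower) and 29 to 76 without single libraries. The cause was not tested. No called change of a named gene reversed. Of 1068 values of named genes that were not called, 60 took the other sign under an alternative, and 0 of these were called. The Amd2 share moved by less than 1 SD with summed counts. Without single libraries its mean ran from 8.28% to 8.71% in App-KI at 3 months and from 4.92% to 5.23% at 9 months. In Trem2-KO it ran from 1.12% to 1.65% and from 1.19% to 1.49%. Leaving out 1 of 3 libraries cannot move a mean by 1 SD, so these ranges are a description and no test. Depth limits Amd2 in Trem2-KO, at 19 to 45 counts.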
